A study of Mus musculus with 6 samples.

Results

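Prostaglandin synthesis and receptor genes were followed through terahertz exposure and across the experiments in mouse mesenchymal stem cell cultures. The group was given as 8 genes: the cyclooxygenases Ptgs1 and Ptgs2, the terminal synthases Ptges, Ptgis and Ptgds, and the receptors Ptger2, Ptger4 and Ptgfr. A probe set belonged to the group when its gene symbol in the platform annotation was exactly one of these names. That gave 7 of the 8 genes, among 18193 genes named on the array, with 16 of the 45037 probe sets tested. No probe set had Ptgs1 as its exact symbol, so its level is not analysed here, and only its promoter entry was searched.

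The data are 6 Affymetrix arrays, 3 of irradiated cultures and 3 of controls. Irradiated cultures lay for 2 h under a pulsed broadband terahertz source (35 fs pulses around 10 THz, 1 kHz repetition, 1 mW/cm2 on average). The arrays form 3 experiments, and in each of them an irradiated culture is paired with its own unexposed control, at 26 to 27 °C. The cells came from a commercial supplier, and the labels used here name no strain or age. All 6 cultures, controls included, had been given the glucocorticoid dexamethasone at 1 µM, IBMX, which slows cyclic AMP breakdown, at 100 µM, insulin at 5 µg/ml and rosiglitazone at 1 µM, added again 48 h before exposure. This mix drives cells toward fat, so the controls are differentiating cultures and not unstimulated stem cells.

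Prostaglandins are short-lived lipid signals made from arachidonic acid, a fatty acid that phospholipases free from membranes. A cyclooxygenase turns it into an unstable intermediate, and a terminal synthase turns that into one prostaglandin, which acts on nearby cells through its own G protein-coupled receptor. Ptgs2 encodes the inducible cyclooxygenase COX-2 and is known as an early response gene that serum, cytokines and cyclic AMP switch on and that glucocorticoids hold down. In fat cell precursors, prostaglandins made through it are known to act back on differentiation.

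The sequences around the annotated starts of 3 members are shown first, because these are the members whose levels differed most between experiments. RefSeq promoter entries (GRCm38.p6, 300 bases each) were matched by symbol for 7 of the 8 members. Ptgis had no entry, and the 7 include Ptgs1, which had no probe set. The stretches run 5′ to 3′ on the gene's strand, from 120 bases before the annotated start to 30 bases after it. Capitals mark every match to the motifs searched on both strands.
Ptgs2, chr1:150099911-150100060, plus strand: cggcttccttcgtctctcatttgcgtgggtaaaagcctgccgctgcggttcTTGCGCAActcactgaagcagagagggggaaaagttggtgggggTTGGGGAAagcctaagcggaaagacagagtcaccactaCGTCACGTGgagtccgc
Ptger4, chr15:5244158-5244307, minus strand: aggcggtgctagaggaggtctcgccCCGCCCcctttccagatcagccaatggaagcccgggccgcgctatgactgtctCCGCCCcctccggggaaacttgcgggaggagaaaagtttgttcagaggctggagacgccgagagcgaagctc
Ptgfr, chr3:151837499-151837648, minus strand: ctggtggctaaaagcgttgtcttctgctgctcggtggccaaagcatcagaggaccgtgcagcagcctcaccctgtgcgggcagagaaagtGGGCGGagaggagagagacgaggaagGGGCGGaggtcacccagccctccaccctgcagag

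The Ptgs2 stretch held a half-site of the cyclic AMP response element (TGACG, read here as CGTCA on the other strand) at bases 14 to 18 after the start. It overlapped an E-box (CACGTG) at bases 17 to 22. Of all 32851 promoter entries, 20.8% held the half-site and 7.15% the E-box. Among the 7 member promoters, each of these motifs was found in Ptgs2 alone. The other capitals in Ptgs2 are matches to the C/EBP-type pattern TTNCNNAA, which 5 of the 7 member promoters and 40.7% of all entries held. Those in Ptger4 and Ptgfr are GC boxes (GGGCGG), found in 4 of the 7 and in 35.7% of all entries. An AP-1 site (TGAGTCA) occurred in the Ptgds entry, and the full element TGACGTCA and the TATA box TATAAA occurred in 0 of the 7 (5.20%, 1.79% and 13.6% of all entries). A match is a run of letters in this window and does not show that a factor binds there.

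Across the arrays, the medians of all probe sets lay between 4.83 and 4.87 on the log2 scale, and Gapdh control probe sets at the 3′ and 5′ ends differed by -0.05 to -0.01 in experiments 2 and 3, against 0.19 to 0.23 in experiment 1 (3′ less 5′). Control 3 had the highest mean of 9 spike-in probe sets, 11.40 against 10.82 to 10.99 on the other arrays. The stromal markers Pdgfra (9.11 to 9.51) and Eng (7.17 to 7.43) were measured at clear levels, while Thy1, a defining stem cell marker, lay at 3.51 to 4.07, under the median of 4.84. Adiponectin (Adipoq) lay at 13.62 to 13.94, and the leukocyte genes Csf1r at 12.42 to 12.80 and Ptprc at 9.55 to 10.09, so the cultures held fat cell and macrophage transcripts as well. In such bulk RNA, fewer cells of a type and less RNA per cell cannot be told apart. Of the 16 member probe sets, 14 lay at or above the median. The plot of levels shows each member on every array.

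**Figure D1:**
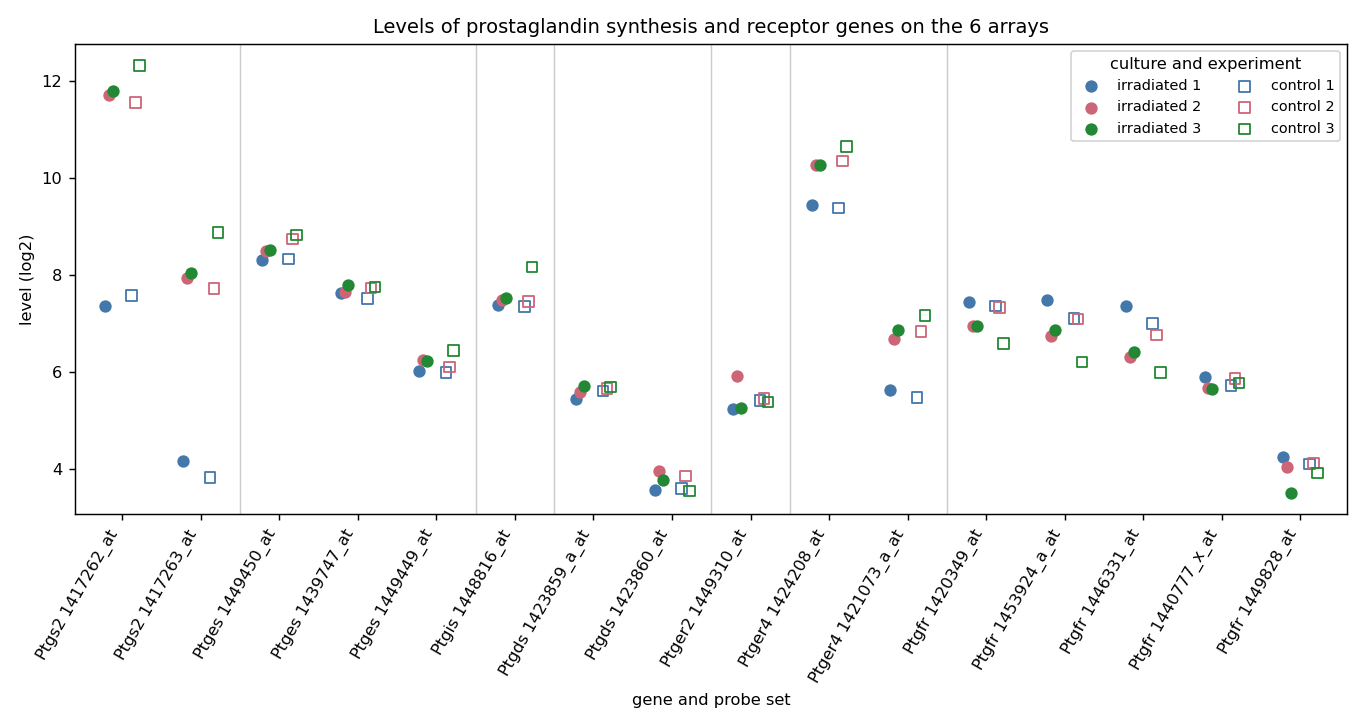
Log2 levels of the 16 probe sets (horizontal axis, ordered by role) on the 6 arrays, with filled circles for irradiated and open squares for control cultures and a colour for each experiment. Both Ptgs2 probe sets split into experiment 1, at 7.37 and 7.58 for 1417262_at, and experiments 2 and 3, at 11.56 to 12.32.

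No member passed the test for exposure. Levels were compared between irradiated and control cultures with limma, with the experiment as a block and p adjusted over all 45037 probe sets, and each difference is the irradiated level less the control level, in log2 units. At an adjusted p of 0.05, 0 of the 16 member probe sets passed, as did 0 of all probe sets (0%). At an unadjusted p of 0.05 the counts were 0 of 16, and 2237 of all probe sets (4.97%). Member differences ranged from -0.19 to 0.24, and adjusted p ranged from 0.929 to 0.991. The median member difference was -0.06 and the median over all probe sets 0.0033. The 95% interval lay inside a 1.5-fold change for 14 of 16 member probe sets, against 97.2% of all, and inside a 2-fold change for 16 of 16, against 99.9%. The 2 with wider intervals were Ptgs2 1417263_at and Ptgfr 1453924_a_at. Cell type markers also leaned between the arms, with 8 of 9 adipocyte differences negative and 11 of 11 macrophage differences positive. Smooth muscle markers were positive in 5 of 6, endothelial in 6 of 8 and mesenchymal stromal in 5 of 9, and mast cell markers were negative in 5 of 7. Summed levels of 9 adipocyte markers were 91.5 to 92.0 in irradiated cultures, against 93.5 to 94.0 in controls, and those of 11 macrophage and leukocyte markers were 121.3 to 122.4 in irradiated cultures, against 119.3 to 121.5 in controls. Among the adipocyte markers, Adig (-0.65), Cidec (-0.48) and Retn (-0.32) differed most, while Lpl (-0.03) and Fabp4 (-0.08) differed little. None of the markers of these lists passed, and their part in the member differences was not tested.

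The inducible cyclooxygenase Ptgs2 stood at 7.37, 11.71 and 11.80 in irradiated cultures 1, 2 and 3, against 7.58, 11.56 and 12.32 in their controls, with probe set 1417262_at. Its second probe set, 1417263_at, stood at 4.17, 7.94 and 8.04 in irradiated cultures, against 3.83, 7.72 and 8.88 in controls. In both probe sets the arms overlapped, and irradiated culture 3 was lower than its control. The difference was -0.19 ± 0.13 (SE, n = 3 pairs, 95% interval -0.52 to 0.13, limma adjusted p = 0.931) for the first. For the second it was -0.09 ± 0.23 (95% interval -0.64 to 0.46, limma adjusted p = 0.978), and its pairs split, at 0.34, 0.22 and -0.84. Without experiment 3 the values were -0.03 and 0.28, so the direction of the second probe set turned, and neither passed (limma adjusted p = 0.895 to 0.980 over the leave-one-out fits).

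Among the terminal synthases, Ptges was the only member with a probe set whose difference had one sign in all 3 pairs. Ptges encodes the microsomal synthase of prostaglandin E2, which is induced along with COX-2. Probe set 1449450_at stood at 8.31, 8.50 and 8.52 in irradiated cultures, against 8.33, 8.74 and 8.82 in controls. Each irradiated culture was lower than its own control, by 0.02, 0.24 and 0.30, but the arms overlapped. One direction in all pairs held for 1 of the 16 member probe sets, against 23.8% of all probe sets. The mean difference was -0.19 ± 0.09 (SE, n = 3 pairs, 95% interval -0.40 to 0.03, limma adjusted p = 0.929). The other Ptges probe sets were at 0.02 ± 0.08 (1439747_at) and -0.01 ± 0.10 (1449449_at), so the lower value was not shared by the gene's probe sets.

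Prostacyclin synthase, Ptgis, was level on 5 arrays and high on the remaining one. It stood at 7.39, 7.49 and 7.52 in irradiated cultures, against 7.35, 7.45 and 8.16 in controls. Control 3 alone lay apart, and its spike-in mean was also the highest. The difference of -0.19 ± 0.15 (SE, n = 3 pairs, limma adjusted p = 0.935) rested on that pair: it was 0.04 without experiment 3 and -0.30 without either of the others. The part of the spike-in signal in this value was not tested.

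Ptgds, which encodes the lipocalin-type synthase of prostaglandin D2, stood at 5.45, 5.58 and 5.72 in irradiated cultures and at 5.61, 5.66 and 5.69 in controls (1423859_a_at, -0.07 ± 0.08). Its other probe set, 1423860_at, lay under the median level at 3.55 to 3.96 and was at 0.10 ± 0.09.

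Receptor genes had small differences of either sign. Ptger4 encodes EP4, a prostaglandin E2 receptor that raises cyclic AMP. On probe set 1424208_at it stood at 9.44, 10.27 and 10.27 in irradiated cultures, against 9.38, 10.35 and 10.65 in controls. The difference was -0.13 ± 0.10 (SE, n = 3 pairs, limma adjusted p = 0.934), and -0.01 without experiment 3. Probe set 1421073_a_at, at 5.62, 6.69 and 6.86 in irradiated cultures and 5.47, 6.83 and 7.17 in controls, gave -0.10 ± 0.11. In both, experiment 1 was positive and experiments 2 and 3 were negative.

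Ptger2 encodes EP2, the other receptor that couples prostaglandin E2 to cyclic AMP. It stood at 5.23, 5.91 and 5.25 in irradiated cultures, against 5.41, 5.45 and 5.38 in controls. Irradiated culture 2 lay apart from the other 5 arrays, which spanned 5.23 to 5.45. The difference was 0.05 ± 0.14 (SE, n = 3 pairs, limma adjusted p = 0.980), and it was -0.16 without experiment 2.

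Ptgfr, the receptor of prostaglandin F2α, which is known to restrain fat cell formation, had 5 probe sets. On 1420349_at it stood at 7.45, 6.95 and 6.94 in irradiated cultures, against 7.36, 7.33 and 6.59 in controls. On 1453924_a_at it stood at 7.49, 6.75 and 6.87 in irradiated cultures, against 7.10, 7.09 and 6.21 in controls. On 1446331_at the values were 7.37, 6.30 and 6.42 in irradiated cultures, against 7.00, 6.76 and 5.99 in controls. These 3 probe sets shared a pattern, with the irradiated culture higher than its control in experiments 1 and 3 and lower in experiment 2. Their differences were 0.02 ± 0.14, 0.24 ± 0.19 and 0.11 ± 0.18 (SE, n = 3 pairs, limma adjusted p = 0.991, 0.934 and 0.968). Without experiment 2 they were 0.22, 0.53 and 0.40, and without experiment 3 they were -0.15, 0.03 and -0.05, none past the test. The 2 other Ptgfr probe sets did not share it. They were 1449828_at, under the median level at 3.51 to 4.24, and 1440777_x_at, whose suffix marks probes that can bind other transcripts, at 5.65 to 5.90.

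**Figure D2:**
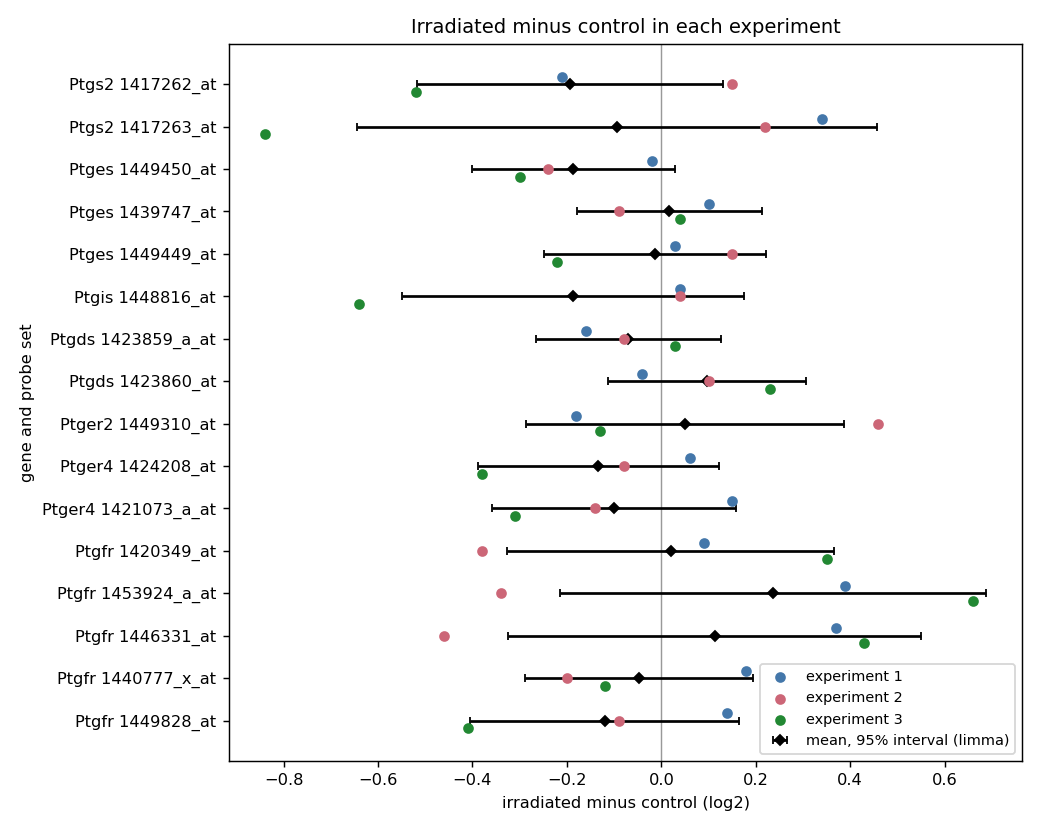
Irradiated minus control (horizontal axis, log2) for each probe set, with coloured points for the 3 experiments and black diamonds for the mean with limma's 95% interval. All 16 intervals cover 0, and the pair of experiment 3 lies lowest for both Ptgs2 probe sets, at -0.52 and -0.84.

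Between experiments, by contrast, Ptgs2 and Ptger4 differed far more than between the arms. Both were higher in experiments 2 and 3 than in experiment 1, in irradiated and control cultures alike. The comparison used the same fit, with irradiation as a term and 2 arrays per experiment. It asks whether experiments differ beyond the spread left between arms. The comparisons with experiment 1 share its 2 arrays. By the moderated F test of limma, 4 of the 16 member probe sets passed at an adjusted p of 0.05, against 689 of all (1.53%), and they were the 2 of Ptgs2 and the 2 of Ptger4. At an unadjusted p of 0.05 the counts were 10 of 16 and 15.2%. The other 5 genes had 0 probe sets past the test in this fit, and with an intensity trend and a robust prior Ptgfr 1446331_at passed as well (5 of 16).

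Ptgs2 averaged 11.64 in experiment 2 and 12.06 in experiment 3, against 7.48 in experiment 1, on probe set 1417262_at. The difference was 4.16 ± 0.16 for experiment 2 minus 1 (SE, n = 2 arrays each, a 17.9-fold ratio, limma adjusted p = 0.00276). For experiment 3 minus 1 it was 4.59 ± 0.16 (limma adjusted p = 0.000290). Probe set 1417263_at gave 3.83 ± 0.28 (limma adjusted p = 0.00644) and 4.46 ± 0.28 (limma adjusted p = 0.00146). Among all 45037 probe sets, the Ptgs2 pair ranked 2 and 3 by absolute difference in experiment 2 minus 1, and 6 and 8 in experiment 3 minus 1. Experiments 3 and 2 were 0.43 ± 0.16 and 0.63 ± 0.28 apart, and this did not pass (limma adjusted p = 0.485 and 0.528, where 16 or 0.0355% of all probe sets passed). In this fit, experiment 1 was lower for Ptgs2 than either of the others, with 2 arrays per experiment, 1 from each arm, and with calls that were lost when any 1 array was left out.

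Ptger4 averaged 10.31 and 10.46 in experiments 2 and 3, against 9.41 in experiment 1, on probe set 1424208_at. Experiment 3 minus 1 was 1.05 ± 0.13 (SE, n = 2 arrays each, a 2.07-fold ratio, limma adjusted p = 0.0142). Experiment 2 minus 1, at 0.90 ± 0.13, narrowly missed the threshold (limma adjusted p = 0.0629), and passed with a level filter, array weights, no irradiation term, or an intensity trend with a robust prior (limma adjusted p = 0.0014 to 0.0376 in these). On 1421073_a_at both differences passed, at 1.22 ± 0.13 (limma adjusted p = 0.0263) and 1.47 ± 0.13 (limma adjusted p = 0.00567). In each probe set, all 4 arrays of experiments 2 and 3 lay above both arrays of experiment 1.

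These calls need all 6 arrays. With any 1 array left out, 1 residual degree of freedom remained, and 0 of all probe sets passed in each of the 6 fits of every experiment comparison (3349 to 6662 at an unadjusted p of 0.05 in the F test). The sizes held, with Ptgs2 1417262_at at 3.90 to 4.42 for experiment 2 minus 1 (limma adjusted p = 0.0850 to 0.781) and at 4.34 to 4.83 for experiment 3 minus 1 (0.0716 to 0.260). Ptger4 1424208_at kept 0.87 to 1.24 for experiment 3 minus 1 (0.122 to 0.438), and 1421073_a_at kept 1.03 to 1.40 and 1.28 to 1.66.

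Ptgfr pointed the other way. Its 3 probe sets with a shared pattern were at -0.27 ± 0.17, -0.38 ± 0.23 and -0.66 ± 0.22 in experiment 2 minus 1, and at -0.64 ± 0.17, -0.76 ± 0.23 and -0.98 ± 0.22 in experiment 3 minus 1 (SE, n = 2 arrays each). None passed (limma adjusted p = 0.0815 to 0.152 in experiment 3 minus 1). With an intensity trend and a robust prior these 3 did pass in experiment 3 minus 1, at 0.0349, 0.0470 and 0.0145, and so did Ptges 1449450_at, at 0.0475. With no irradiation term 1446331_at alone of these passed, at 0.0498. The x_at probe set of Ptgfr was at -0.10 ± 0.12 in the same comparison.

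The remaining synthases and Ptger2 did not pass. In experiment 3 minus 1, the Ptges probe sets were at 0.35 ± 0.11, 0.20 ± 0.10 and 0.33 ± 0.12, and Ptgis was at 0.47 ± 0.18, of which control 3 gave the greater part (0.13 without it). Ptgds was at 0.18 ± 0.10 and 0.09 ± 0.11, and Ptger2 at -0.01 ± 0.17, in the same comparison. Of the 16 probe sets, 3 passed in experiment 2 minus 1, against 0.520% of all, and 4 in experiment 3 minus 1, against 3.05%. All of them were higher, as were 0.473% and 1.87% of all probe sets.

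**Figure D3:**
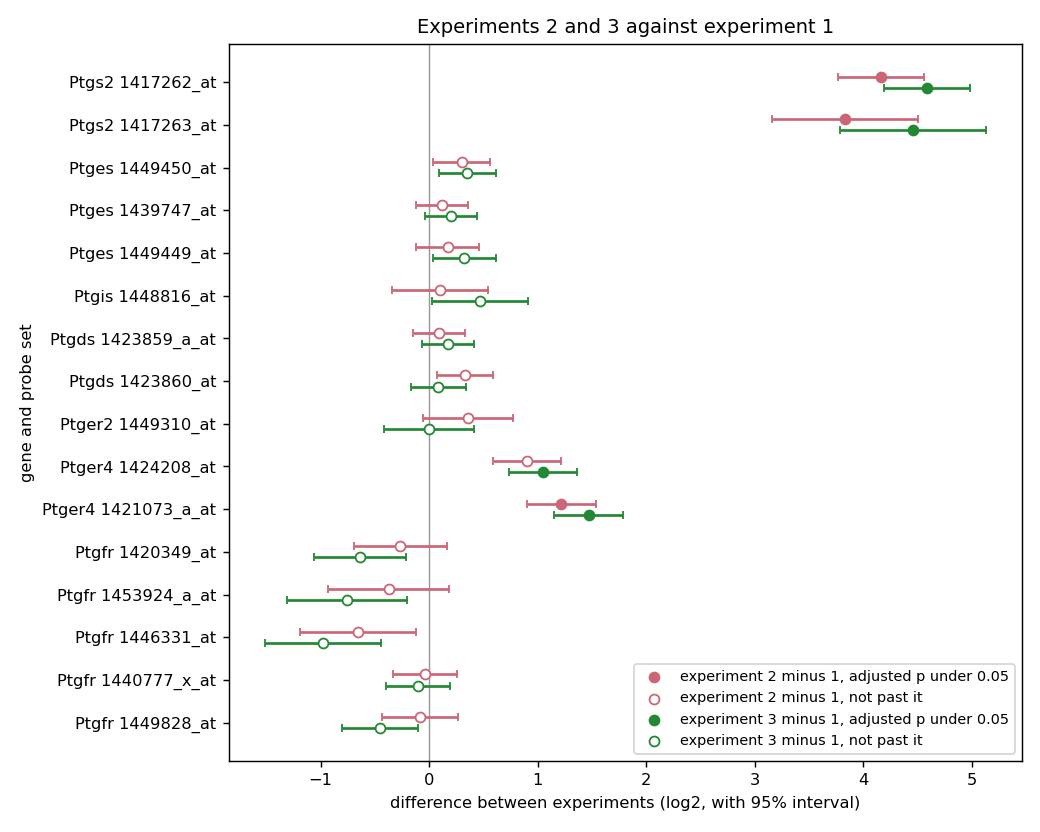
Experiment 2 minus 1 and experiment 3 minus 1 (horizontal axis, log2) for each probe set, with limma's 95% intervals and filled points where adjusted p is under 0.05. Ptgs2 lies at 3.83 to 4.59 and Ptger4 at 0.90 to 1.47, while the 5 Ptgfr probe sets lie under 0.

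Experiment accounted for 99.3% and 98.2% of the sum of squares of the Ptgs2 probe sets over the 6 arrays and for 94.4% and 97.3% of those of Ptger4, against 65.5% over all probe sets. Irradiation accounted for 0.217% and 0.055% of Ptgs2 and for 1.95% and 0.591% of Ptger4, against 11.8% over all probe sets. These are shares of one total, so a large experiment share leaves little for irradiation whatever the size of its difference. Other measures moved between the same experiments. The inducible chaperone Hspa1a stood at 9.06 and 8.83 in irradiated and control cultures of experiment 2 and at 12.35 and 12.70 in those of experiment 3, against 5.63 and 5.71 in those of experiment 1. Macrophage and leukocyte markers, with 11 measured, had a summed level of 119.3 to 121.3 in experiments 2 and 3, against 121.5 to 122.4 in experiment 1. Of these markers 9 of 11 were lower in experiment 3 than in experiment 1, with a median of -0.19, and 0 passed. Smooth muscle markers were higher in experiment 3 than in experiment 1 in 6 of 6, with a median of 0.16, and 0 passed (Tagln 0.59 ± 0.18, Cnn1 0.55 ± 0.19). Their summed level was 44.5 and 45.3 in irradiated and control cultures of experiment 3, against 44.7 and 41.9 in those of experiment 1. Of 8 endothelial markers 1 passed in experiment 3 minus 1, Pecam1, at 0.56 ± 0.10 (limma adjusted p = 0.0495), with levels of 2.58 to 3.21, under the median of all probe sets. The part of these differences, and of the Gapdh values above, in the Ptgs2 and Ptger4 levels was not tested.

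Early response genes were among those with a pattern most like Ptgs2. Likeness was the Euclidean distance between log2 levels centred on each gene's mean over the 6 arrays, among the highest-level probe sets of 18186 other genes, and it was taken for the 2 members whose highest-level probe set spanned at least 1 on the log2 scale. Nearest to Ptgs2 were the AP-1 gene Fosb (distance 1.30), the neutrophil chemokine gene Cxcl1 (1.39), Csrnp1 (1.64), the neuronal activity gene Arc (1.70) and the early response gene Ier3 (1.74). Fosb stood at 8.40 and 8.74 in irradiated and control cultures of experiment 2 and at 9.92 and 9.96 in those of experiment 3, against 4.11 and 4.37 in those of experiment 1. Cxcl1 was 2.81 ± 0.18 higher in experiment 2 and 3.74 ± 0.18 higher in experiment 3 than in experiment 1. Fosb was the nearest gene, yet its experiment 3 minus 1 difference of 5.70 exceeded that of Ptgs2.

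Nearest to Ptger4 were Tiparp (distance 0.10), the AP-1 gene Fosl1 (0.12), Hilpda, which encodes a lipid droplet protein induced by hypoxia (0.15), Mdm2, the ubiquitin ligase that degrades p53 (0.16), and the histone demethylase gene Kdm6b (0.17). Their experiment 3 minus 1 differences were 0.99 to 1.09, beside 1.05 for Ptger4. These 10 genes were picked by their levels on the same 6 arrays, so the distances are a description with no test.

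**Figure D4:**
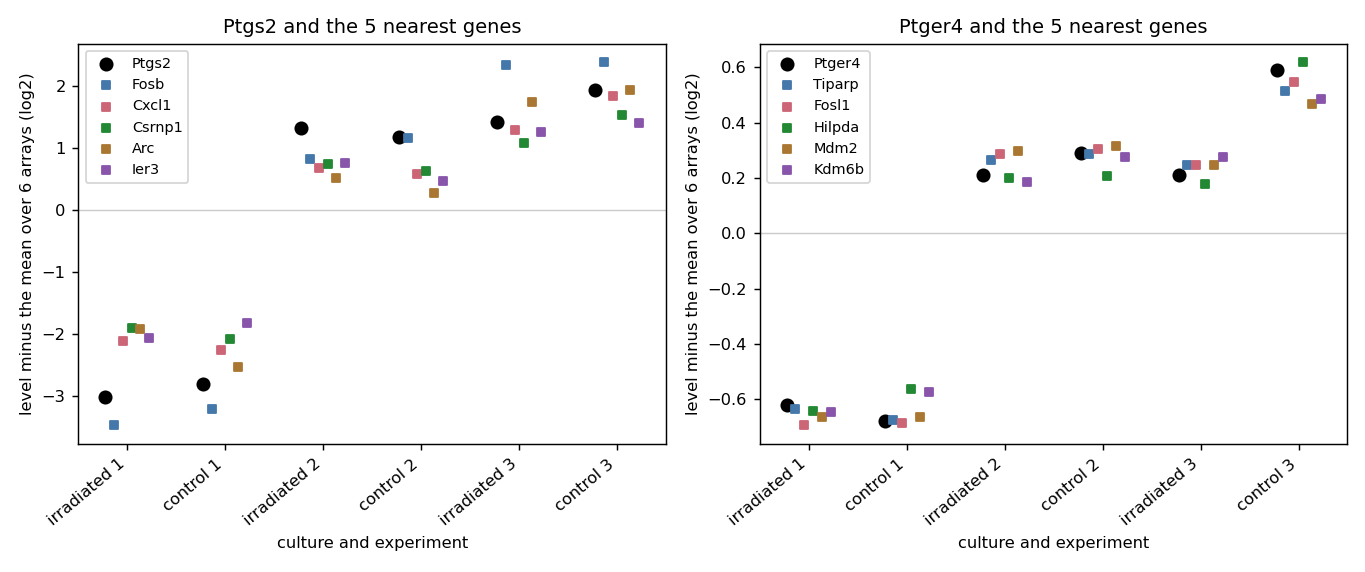
Log2 levels minus each gene's mean over the 6 arrays (vertical axis) for Ptgs2, left, and Ptger4, right, each in black circles beside its 5 nearest genes in coloured squares. In every gene shown, the 2 members and their nearest genes alike, experiment 1 lies lowest and control 3 lies above irradiated 3.

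No other listed gene of the pathway passed on its highest-level probe set, the only one counted here. The lists used here were broad and held some genes with other roles than the list name. Of 56 genes listed under arachidonate release, prostanoid synthases, receptors, transport and breakdown, or leukotrienes and lipoxygenases, 49 were measured. None passed for irradiation or in the experiment F test of limma, against 0% and 1.53% of all probe sets, and 0 of 49 is near these shares. By highest-level probe set, 0 and 300 of all 18193 genes passed. In irradiated minus control 29 were positive and 20 negative, with a median of 0.01, with 0.0033 over all probe sets. In experiment 2 minus 1, 27 were positive and 20 negative, with a median of 0.03, and in experiment 3 minus 1, 18 were positive and 31 negative, with a median of -0.05 (-0.01 over all probe sets in both).

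The list of phospholipases and arachidonate release, with 17 measured, had a median irradiated minus control difference of 0.04. Pla2g4a, the cytosolic phospholipase that supplies the cyclooxygenases, stood at 8.27, 8.34 and 8.25 in irradiated cultures and 8.30, 8.15 and 8.11 in controls. Pla2g7, which degrades platelet-activating factor, stood at 10.62, 10.71 and 10.67 in irradiated cultures, against 10.52, 10.36 and 10.23 in controls. Its arms did not overlap, as was so for 6.73% of all probe sets. It was higher in 3 of 3 pairs, as were 12.6% of all probe sets. Its difference of 0.30 ± 0.09 did not pass (SE, n = 3 pairs, limma adjusted p = 0.929). Mgll, the monoglyceride lipase that also yields arachidonic acid, stood at 9.67, 9.62 and 9.47 in irradiated cultures, against 9.95, 9.67 and 10.05 in controls (-0.30 ± 0.11, limma adjusted p = 0.929). Of the other Mgll probe sets, 2 gave -0.28 and -0.26, and 1431331_at gave 0.23.

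The other prostanoid synthases, with 6 measured, had a median of -0.09. Thromboxane synthase Tbxas1 was at -0.11 ± 0.08 and the hematopoietic prostaglandin D2 synthase Hpgds at 0.01 ± 0.08. The 7 genes of the receptor list, Ptgfrn included, had a median of 0.03 and the 7 of transport and breakdown 0.00. Hpgd, the main enzyme of prostaglandin inactivation, was at -0.08 ± 0.13. In the leukotriene and lipoxygenase list, 12 were measured with a median of 0.01. Leukotriene A4 hydrolase Lta4h stood at 9.75, 9.57 and 9.63 in irradiated cultures, against 9.46, 9.47 and 9.38 in controls (0.21 ± 0.08). The receptor gene Cysltr2, under the median level, was at 0.25 ± 0.09. These 2 genes were higher in 3 of 3 pairs and did not pass (limma adjusted p = 0.929 for both).

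**Figure D5:**
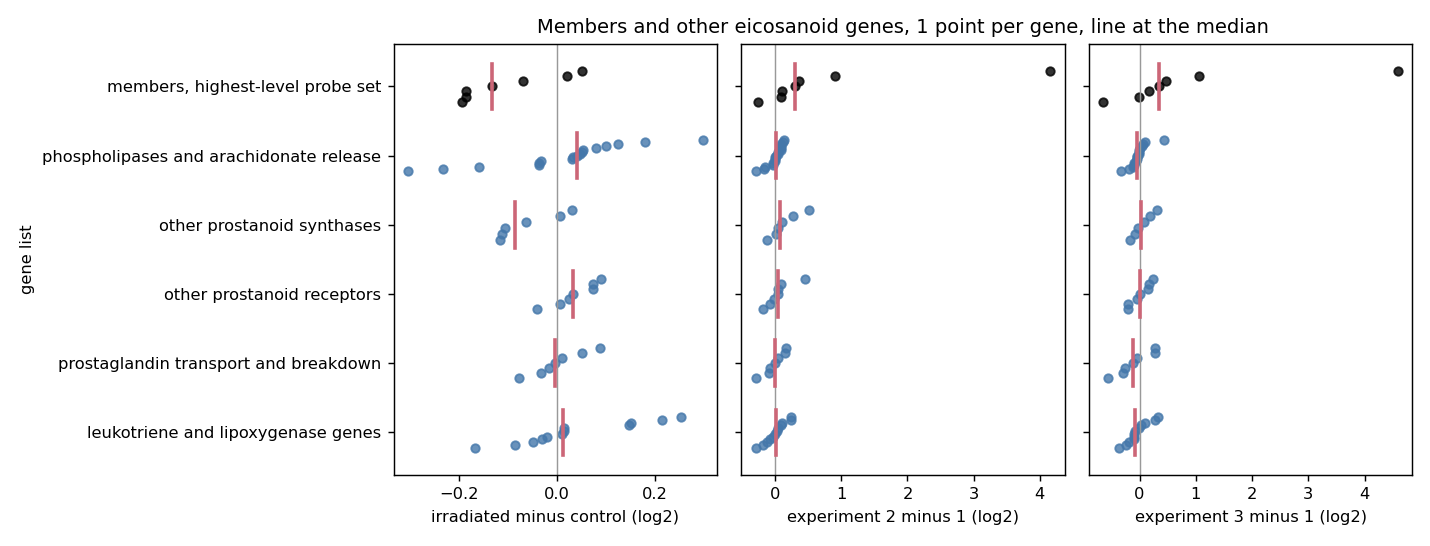
Irradiated minus control, experiment 2 minus 1 and experiment 3 minus 1 (horizontal axes, log2), with 1 point per gene for the 7 measured members in black and 5 lists of other eicosanoid genes in blue, and a red line at each median. The points of Ptgs2, at 4.16 and 4.59, and Ptger4, at 0.90 and 1.05, stand to the right of all 49 other genes in the experiment panels.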

How the data were processed

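Affymetrix arrays of 6 cultures were used, 3 irradiated and 3 control. The authors deposited log2 levels per probe set. Per the submitters' processing notes, the tools were affy, RMA and limma, without version numbers. RMA corrects background, gives all arrays one distribution and summarizes probes, which removes any shift common to the whole array. The log2 base was taken from RMA's scale. Values carry 2 decimals.

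The 64 control probe sets were left out. Genes were named from the platform annotation. The fit was limma 3.58.1 in R 4.3.3 (lmFit, eBayes), two-sided, with Benjamini-Hochberg adjustment over 45037 probe sets and intervals of 95%. It was also run on simulated data with planted changes and no other differences between experiments. That setting is unlike these arrays, so the run does not show how the fit performs on them. Pairing comes from the series design, and deviations of paired arrays from group means correlated across probe sets at r = 0.63, 0.14 and 0.50. Unpaired arrays gave -0.54 to 0.15. The 0.15, of irradiated 2 with control 3, exceeded the value of the pair of experiment 2. The number of arrays limits the precision.

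All probe sets of the members were named, while other listed genes and markers were each counted through their highest-level probe set. Other pathway genes were named when past adjusted p 0.05 (0 were) or among the 4 smallest unadjusted p for irradiation, with Pla2g4a, Tbxas1, Hpgds and Hpgd added after their values were seen. Members, lists and motifs were chosen with earlier results of these data known. Alternatives were quantile normalization, median centring, a level filter, an intensity trend with a robust prior, array weights, probe set means, other treatments of the block, no irradiation term, a minimum difference, and leaving out arrays or experiments.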

Additional observations from a re-analysis of the deposited data

How the results depend on the processing

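For irradiation, 0 probe sets passed in the fit of the report and under every alternative, including no replicate block (0), a random block (0) and leaving out each experiment (0), except that an intensity trend with a robust prior gave 1, Tmem182, which is no member. Pairing by experiment therefore changed no call among the 16 member probe sets. For the experiment F test, 689 probe sets became 1124 with a level filter and 2381 with the trend and robust prior. For experiment 2 minus 1, 234 became 374 and 742 under the same settings, and member genes past the threshold were 2 when probe sets of a gene were averaged, against 1 by the highest-level probe set. For experiment 3 minus 1, 1374 became 2513, 3698 and, with a minimum log2 difference of 1, 521. The members past the threshold there were 8 with the trend and robust prior, against 4. For experiment 3 minus 2, 16 became 64, 315 and, with no irradiation term, 52, and 8 genes became 33 when probe sets were averaged. Leaving out any 1 array gave 0 calls, members included, in all of these, with 1 residual degree of freedom left. Why the calls were lost was not tested.

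Some differences that did not pass also turned sign. With array weights the irradiation difference was 0.0114 for Ptgs2 1417263_at, 0.0185 for Ptges 1449449_at and -0.0359 for Ptgfr 1420349_at, and with median centring it was -0.0033 for Ptges 1439747_at. Ptger2 in experiment 3 minus 1 was 0.0058 with quantile normalization and 0.01 with median centring. Leaving out experiments gave irradiation differences of -0.31 to 0.28 for Ptgs2 1417263_at, -0.025 to 0.07 for Ptges 1439747_at, -0.095 to 0.09 for Ptges 1449449_at, -0.30 to 0.04 for Ptgis, -0.155 to 0.165 for Ptger2 and -0.225 to 0.005 for Ptger4 1421073_a_at. For Ptgfr they were -0.145 to 0.22 (1420349_at), -0.045 to 0.40 (1446331_at), -0.16 to 0.03 (1440777_x_at) and -0.25 to 0.025 (1449828_at). Leaving out arrays gave, in experiment 2 minus 1, -0.07 to 0.27 for Ptgis, and for Ptgfr -0.565 to 0.035 (1420349_at), -0.8075 to 0.0575 (1453924_a_at), -0.21 to 0.13 (1440777_x_at) and -0.28 to 0.11 (1449828_at). In experiment 3 minus 1 the ranges were -0.0175 to 0.1875 for Ptgds 1423860_at, -0.1775 to 0.1675 for Ptger2 and -0.27 to 0.07 for Ptgfr 1440777_x_at. In experiment 3 minus 2 they were -0.035 to 0.135 for Ptges 1449450_at, -0.035 to 0.335 for Ptger4 1424208_at, and for Ptgfr -0.8125 to 0.0525 (1453924_a_at), -0.755 to 0.105 (1446331_at) and -0.175 to 0.055 (1440777_x_at). Ptgds 1423860_at and Ptgfr 1449828_at have no value under the level filter. With an experiment left out, the irradiation difference is the mean of the remaining pairs, so dropping a pair of the other sign can turn it. Why the pairs differed, and the cause of the other sign changes, was not tested.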
